A study of Mus musculus with 17 samples.

Results

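Fibroblast growth factor (FGF) signalling genes were followed in whole mouse kidneys at E12.5, when the first nephrons are forming: 10 genes chosen by symbol and matched through their Ensembl gene IDs, of 24432 gene IDs in the expression table. They were the ligands Fgf7, Fgf8, Fgf9, Fgf10 and Fgf20, the receptors Fgfr1 and Fgfr2, the receptor-like gene Fgfrl1, and the feedback inhibitors Spry2 and Dusp6. All 10 were in the table and 9 passed the filter on low values (at least 1 FPKM in at least 3 of the 17 libraries); Fgf7 did not.

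RNA sequencing was carried out on 17 libraries of dissected kidneys from mice of mixed strain. The Foxd1-Cre group (5 libraries, genotype Ctnnb1-delta3 c/+;Foxd1) carried 1 activatable copy of Ctnnb1, the gene for beta-catenin, together with a Cre that marks the stromal lineage. The Six2-Cre group (3 libraries, Ctnnb1-delta3 c/+;Six2) carried the same allele with a Cre that marks nephron progenitors, and 9 wild-type libraries had neither. Excision of exon 3 removes the part of beta-catenin that targets it for degradation, so that the protein accumulates in the lineage of the Cre and in the descendants of those cells. The labels do not give the Cre constructs, whether kidneys were pooled, whether controls were littermates, or any Cre-only control.

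FGFs are secreted proteins that bind receptor tyrosine kinases with the help of heparan sulphate chains and activate the RAS-MAPK cascade and ETS transcription factors. Sprouty proteins and the ERK phosphatase Dusp6 are induced by the pathway and damp it. In the early kidney, Fgf9 and Fgf20 maintain nephron progenitors, Fgf8 keeps cells alive during formation of the first nephron vesicles, Fgf7 and Fgf10 signal from mesenchyme to the ureteric bud through the epithelial form of Fgfr2, and Fgfrl1 is a receptor without a kinase domain that nephron formation requires.

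Expression was measured in FPKM, fragments per kilobase of transcript per fixed number of mapped fragments, which can be compared between genes because it is per length. Foxd1-Cre libraries were compared with wild types 1 to 6 and Six2-Cre libraries with wild types 7 to 9. Depth was not given, and it was estimated from the value of 1 read for a transcript of 1 kilobase, which was 0.0266 to 0.0347 FPKM in the first set of 11 libraries and 0.165 to 0.186 FPKM in the second set of 6. Small values were therefore less precise in the Six2-Cre comparison, and levels were not compared across the sets. Changes are given as log2 differences of FPKM + 1 between group means with limma's standard error (SE); this scale understates the change of low genes. A gene was called when limma's p, adjusted by Benjamini-Hochberg over all genes tested, was under 0.05. The labels do not say that replicates came from separate animals, so these p-values measure the spread between libraries, which may be technical.

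The labels were first checked. Axin2, a direct target of beta-catenin signalling, had a mean of 68.0 FPKM in Foxd1-Cre kidneys (SD 6.80, n = 5) against 10.1 in wild types (SD 0.571, n = 6), and of 36.5 in Six2-Cre kidneys (SD 4.08, n = 3) against 13.0 (SD 0.538, n = 3). Foxd1 was at 19.9 against 102 FPKM in the Foxd1-Cre comparison, and Six2 at 18 against 80.8 FPKM in the Six2-Cre comparison. Ctnnb1 itself has a whole-gene value, which does not check the deleted exon. For the marker counts that follow, 8.45% of all genes tested rose and 4.82% fell in Foxd1-Cre kidneys. In Six2-Cre kidneys 7.93% rose and 5.84% fell. Among markers of other cells, 6 of 9 cortical stroma markers fell in Foxd1-Cre kidneys and 2 rose, with a summed level of 213 to 236 FPKM against 474 to 506. In Six2-Cre kidneys 2 of these 9 fell and 1 rose (444 to 479 against 455 to 471 FPKM). Of 12 nephron progenitor markers, 6 fell in Foxd1-Cre kidneys (471 to 528 against 567 to 686 FPKM) and 9 fell in Six2-Cre kidneys (297 to 306 against 523 to 590 FPKM). Of 10 ureteric bud markers, 1 rose and 1 fell in Foxd1-Cre kidneys (242 to 301 against 237 to 283 FPKM) and 7 fell in Six2-Cre kidneys (190 to 199 against 253 to 272 FPKM). All 6 endothelial markers rose in Six2-Cre kidneys (155 to 164 against 72.2 to 89.5 FPKM) and 3 of 6 in Foxd1-Cre kidneys (108 to 140 against 88.2 to 116 FPKM). Of 5 tested erythroid markers, 3 fell in Foxd1-Cre kidneys (1987 to 3235 against 2511 to 5324 FPKM), and 4 fell and 1 rose in Six2-Cre kidneys (2006 to 2379 against 3841 to 4548 FPKM). Of 7 medullary and ureteric stroma markers, 4 rose and 1 fell in Foxd1-Cre kidneys (605 to 692 against 641 to 773 FPKM), and 3 rose and 2 fell in Six2-Cre kidneys (518 to 546 against 537 to 541 FPKM). The summed neural and neural crest markers were at 25.9 to 36.6 against 8.78 to 13.0 FPKM in the Foxd1-Cre comparison, where Tubb3 rose. The gonad marker Amhr2 rose in Foxd1-Cre kidneys, with that list's sum at 8.59 to 20.4 against 1.81 to 3.54 FPKM. Markers of committed nephrons rose and fell in similar numbers (3 and 3 of 11 in Foxd1-Cre, 3 and 4 in Six2-Cre), and 2 of 6 macrophage markers rose in Six2-Cre kidneys. No marker of these lists was at 0 in every library. In RNA of whole kidneys, fewer cells of a type and less RNA per cell cannot be told apart, and the part of these cell types in the results below was not tested.

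Promoter windows, the 250 bases before a RefSeq start (GRCm38.p6), were available for 7 of the 10 genes, and those of 4 are shown. The Fgf9 window (chr14:58072436-58072685) lay inside that gene, whose RefSeq span starts at 58070671, so the bases before it were not searched. GENCODE, the annotation used for matching, gives longer spans for Fgf10, Fgfr2 and Fgfrl1. Their windows lay inside those spans, so the bases before the GENCODE starts were not searched either. Fgfr2 and Fgf10 are shown because their changes differed most clearly between the mutants along with Fgf8, and Spry2 and Dusp6 because they are the feedback genes. Sequences run 5′ to 3′ on the strand of the gene, for Fgfr2 at chr7:130266809-130267058 (minus strand), Fgf10 at chr13:118714449-118714698 (plus strand), Spry2 at chr14:105896820-105897069 (minus strand) and Dusp6 at chr10:99262981-99263230 (plus strand). Capitals mark a match to the TCF/LEF letters through which beta-catenin acts on DNA (CTTTG followed by AA or AT, or by TA or TT, on either strand) or to the ETS letters CCGGAA, also on either strand.
Fgfr2: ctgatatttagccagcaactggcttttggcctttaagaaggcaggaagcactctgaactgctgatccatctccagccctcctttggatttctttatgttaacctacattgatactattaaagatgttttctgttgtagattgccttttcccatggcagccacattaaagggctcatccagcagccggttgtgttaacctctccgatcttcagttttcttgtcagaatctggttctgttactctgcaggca
Fgf10: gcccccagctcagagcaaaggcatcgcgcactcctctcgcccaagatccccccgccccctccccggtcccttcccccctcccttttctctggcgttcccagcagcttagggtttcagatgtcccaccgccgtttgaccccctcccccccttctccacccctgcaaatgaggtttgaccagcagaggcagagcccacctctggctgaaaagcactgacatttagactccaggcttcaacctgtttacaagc
Spry2: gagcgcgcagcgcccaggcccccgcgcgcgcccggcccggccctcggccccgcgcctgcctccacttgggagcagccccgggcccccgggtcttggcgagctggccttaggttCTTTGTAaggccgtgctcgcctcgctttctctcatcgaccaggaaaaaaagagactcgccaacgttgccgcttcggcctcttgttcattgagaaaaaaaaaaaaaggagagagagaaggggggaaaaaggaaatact
Dusp6: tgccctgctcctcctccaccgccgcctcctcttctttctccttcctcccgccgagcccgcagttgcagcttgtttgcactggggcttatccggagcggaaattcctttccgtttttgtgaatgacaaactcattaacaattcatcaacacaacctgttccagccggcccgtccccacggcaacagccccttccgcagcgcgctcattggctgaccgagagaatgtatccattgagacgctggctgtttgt

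Among the 7 windows, TCF/LEF letters were found in Spry2 (CTTTGTA, 137 to 131 bases before the start) and in Fgf7 (CTTTGTA, 226 to 220 bases before the start), and ETS letters in Fgfrl1 (CCGGAA, 48 to 43 bases before the start). The windows of Fgfr2, Fgf10 and Dusp6 held neither, nor did the window inside Fgf9. Of 32851 RefSeq windows of the same length, 14.8% held the TCF/LEF letters and 12% the ETS letters. A match is a run of letters only, and no binding was measured.

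In wild types 1 to 6 the order of levels was Fgfr1, Fgfr2, Dusp6, Fgfrl1, Spry2, Fgf8, Fgf10, Fgf20, Fgf9 and Fgf7, from 165 ± 8.35 FPKM for Fgfr1 down to 0.369 ± 0.177 for Fgf7 (SD, n = 6). No neighbours in that order overlapped. In wild types 7 to 9 the order was Fgfr1, Fgfr2, Dusp6, Spry2, Fgfrl1, Fgf10, Fgf8, Fgf20, Fgf9 and Fgf7. There the ranges of Fgfr2 and Dusp6, of Fgf10 and Fgf8, and of Fgf20 and Fgf9 overlapped. In both sets of wild types the receptors lay above every ligand, and Fgf8 and Fgf10 were the most abundant of the 5 ligands.

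Stabilised beta-catenin in the stroma was accompanied by lower Fgf8, Fgfr1, Spry2 and Dusp6 and by higher Fgfr2 and Fgf20. In Foxd1-Cre kidneys 6 of the 9 tested genes were called, against 13.3% of all 13996 genes tested, with 2 rising (8.45% of all genes rose) and 4 falling (4.82% of all genes fell). Their median log2 change was 0.02, and that of all genes was -0.01. In Six2-Cre kidneys 2 of the 9 were called, Fgf10 and Fgfr2, against 13.8% of all 13828 genes tested, and both fell (5.84% of all genes fell and 7.93% rose). The median of the 9 was 0.15, against -0.01 for all genes. When the effects in the mutants were compared with each other, 4 of 9 differed (Fgf8, Fgf10, Fgfr2 and Dusp6), against 11% of 13810 genes; 2 of them lay higher in Foxd1-Cre (5.76% of all genes) and 2 lower (5.24%).

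**Figure D1:**
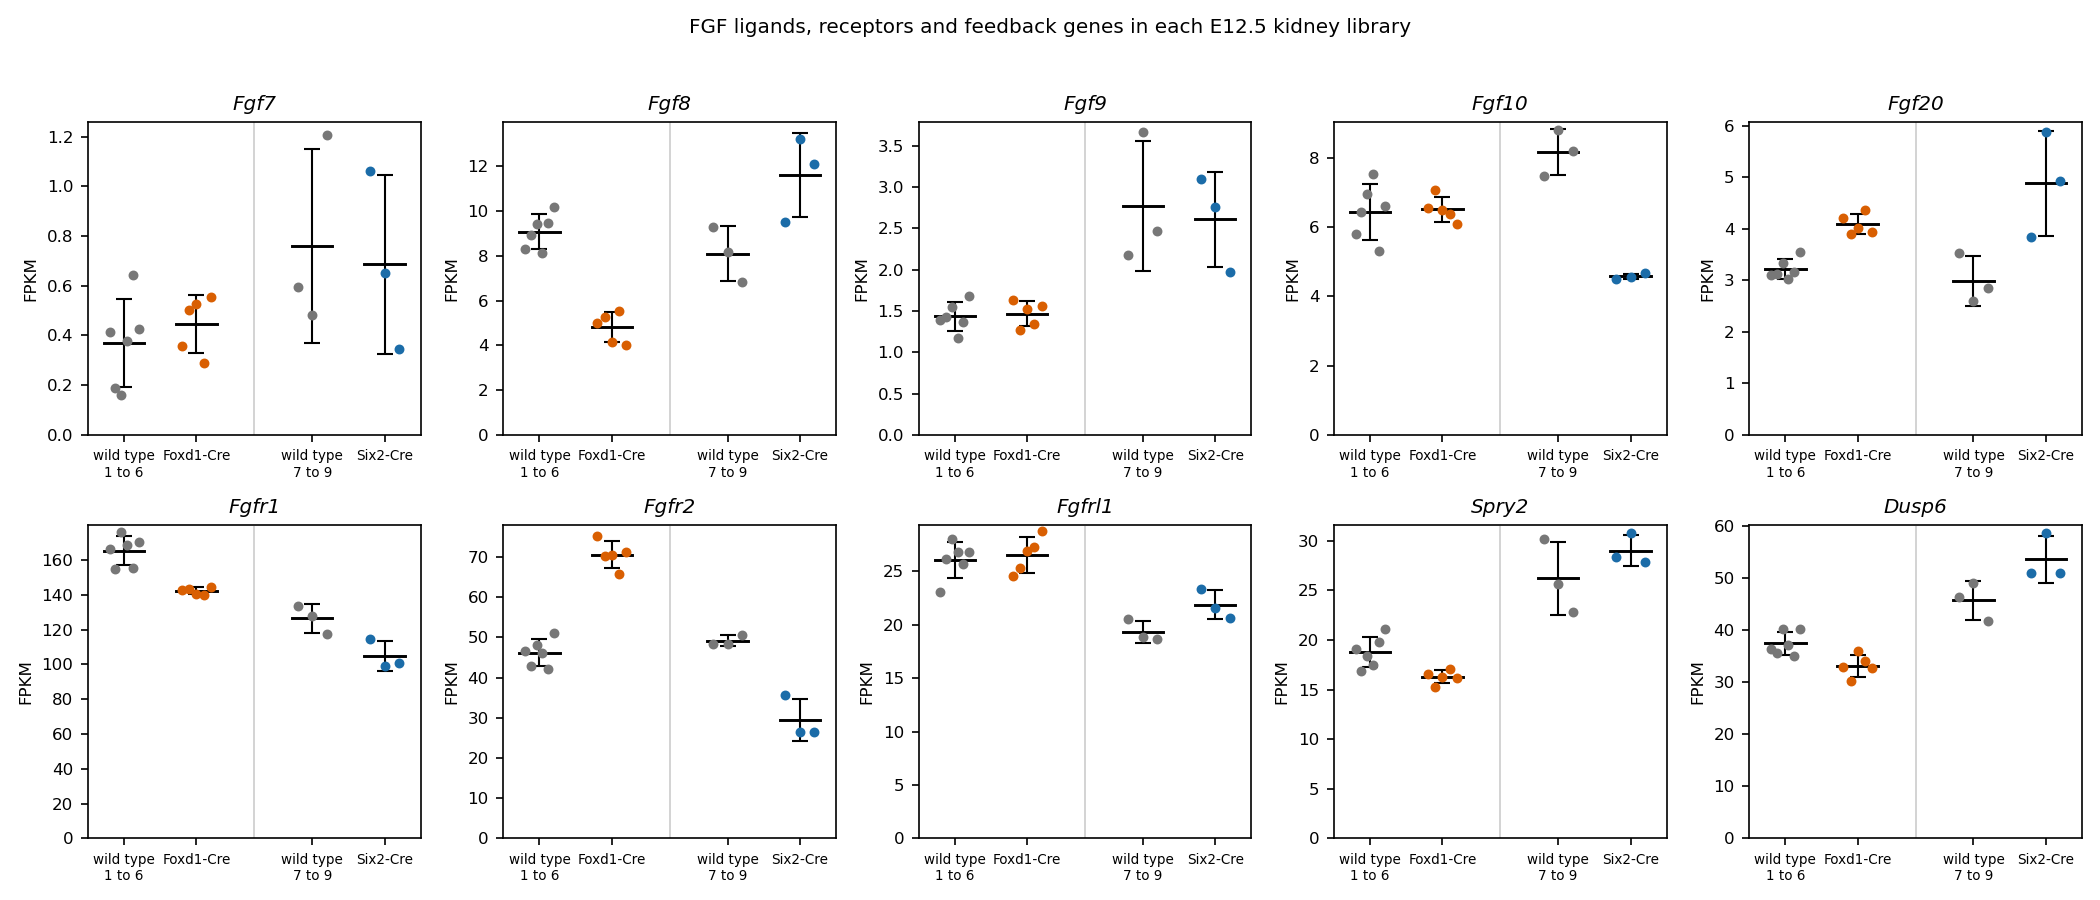
FPKM of the 10 FGF genes in each library (points), with group means and SD (bars), for wild types 1 to 6 (n = 6) and Foxd1-Cre (n = 5) left of the vertical line and wild types 7 to 9 (n = 3) and Six2-Cre (n = 3) right of it; every vertical axis starts at 0 and has its own scale. Fgfr2 lies above its wild types in all 5 Foxd1-Cre libraries and below them in all 3 Six2-Cre libraries, and Fgf8 lies below its wild types in Foxd1-Cre only.

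Fgf8 (chromosome 19, 45736798 to 45742915) had the largest change of the 5 ligands in Foxd1-Cre kidneys. It was at 5.01, 5.28, 4.16, 5.54 and 4.03 FPKM in Foxd1-Cre libraries 1 to 5, and at 8.12 to 10.2 FPKM (median 9.17) in wild types 1 to 6. All 5 mutant libraries were below every wild type, and the wild-type mean was 1.89 times the mutant mean. The fall was -0.80 ± 0.08 on the log2 scale (95% interval -0.98 to -0.62, limma adjusted p = 3.4e-05). In Six2-Cre kidneys Fgf8 was at 9.53, 13.2 and 12.1 FPKM against 9.30, 8.17 and 6.82 FPKM in wild types 7 to 9. All 3 mutant values were above the wild types, but the difference did not pass the test (0.47 ± 0.15, 95% interval 0.11 to 0.83, limma adjusted p = 0.0921). These values rest on few reads, an estimated 43 to 92 per library in the second set against 138 to 402 in the first. The difference of the effects, Foxd1-Cre minus Six2-Cre, was -1.27 ± 0.17 (95% interval -1.65 to -0.89, limma-based adjusted p = 0.000869).

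Fgf10 (chromosome 13, 118669791 to 118792115), the mesenchymal ligand of the bud, fell in Six2-Cre kidneys and was not called in Foxd1-Cre kidneys. In Six2-Cre kidneys it was at 4.51, 4.56 and 4.66 FPKM, and in wild types 7 to 9 at 7.47, 8.79 and 8.21 FPKM. The groups were far apart relative to their spread, with a wild-type mean 1.78 times the mutant mean. The fall was -0.71 ± 0.08 (95% interval -0.91 to -0.52, limma adjusted p = 0.00404), and it was called with each of the 6 libraries left out in turn (adjusted p 0.0101 to 0.0214). In Foxd1-Cre kidneys the values were 6.55, 7.07, 6.5, 6.37 and 6.08 FPKM, inside the wild-type range of 5.30 to 7.54 FPKM (median 6.51). That difference was 0.02 ± 0.07 (95% interval -0.14 to 0.18, limma adjusted p = 0.896). The effects themselves differed by 0.73 ± 0.11 (95% interval 0.50 to 0.97, limma-based adjusted p = 0.000371).

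Fgf20 (chromosome 8, 40279166 to 40308331), which acts on nephron progenitors, rose in Foxd1-Cre kidneys. It was at 4.21, 3.91, 4.02, 4.37 and 3.94 FPKM there and at 3.03 to 3.56 FPKM (median 3.14) in wild types 1 to 6, with no overlap. The rise was small, 0.27 ± 0.04 (95% interval 0.17 to 0.37, limma adjusted p = 0.00159). In Six2-Cre kidneys Fgf20 was at 3.84, 5.88 and 4.94 FPKM against 3.54, 2.6 and 2.85 FPKM. Again every mutant library was above every wild type, but the test was not passed (0.55 ± 0.16, 95% interval 0.16 to 0.94, limma adjusted p = 0.0742), and these libraries held an estimated 22 to 52 reads of the gene. The effects in the mutants did not differ beyond their error (-0.28 ± 0.17, 95% interval -0.67 to 0.11, limma-based adjusted p = 0.377). The summed nephron progenitor markers were lower in both mutants, as given above, and a link between them and Fgf20 was not tested. The annotated span of Micu3 overlaps that of Fgf20 on the opposite strand. Whether their exons overlap was not examined, so some reads of Fgf20 could belong to Micu3.

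Fgf9 (chromosome 14, 58070547 to 58112720), the other progenitor ligand, was not called in either mutant. It was at 1.47 ± 0.151 FPKM (n = 5) against 1.43 ± 0.174 (n = 6) in the Foxd1-Cre comparison, a difference of 0.02 ± 0.06 (95% interval -0.12 to 0.16, limma adjusted p = 0.884). In the Six2-Cre comparison it was at 2.61 ± 0.577 against 2.77 ± 0.790 FPKM (n = 3 each). The interval there was wide, -0.52 to 0.41, so a moderate change in either direction was not excluded (difference -0.06 ± 0.19, limma adjusted p = 0.880). The parts of depth and of group size in that width were not tested. The effects in the mutants differed by 0.08 ± 0.20 (95% interval -0.40 to 0.55, limma-based adjusted p = 0.870). Fgf7 (chromosome 2, 126034658 to 126091185), a bud ligand like Fgf10, was near the limit of measurement. It was at 0.447 ± 0.115 against 0.369 ± 0.177 FPKM in the first set, about 15 to 53 reads, and at 0.686 ± 0.360 against 0.762 ± 0.390 FPKM in the second, about 5 to 17 reads. Its groups overlapped in both comparisons and it was not tested.

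Among the receptors, Fgfr2 moved in opposite directions in the mutants. Its RefSeq span is chromosome 7, 130162451 to 130266808. In Foxd1-Cre libraries 1 to 5 it was at 75.3, 70.2, 70.5, 65.8 and 71.3 FPKM, and in wild types 1 to 6 at 42.1 to 51.0 FPKM (median 46.4). Every mutant library was above every wild type, and the mutant mean was 1.53 times the wild-type mean. The rise was 0.60 ± 0.05 (95% interval 0.49 to 0.72, limma adjusted p = 8.18e-06). In Six2-Cre libraries 1 to 3 it was at 35.5, 26.4 and 26.3 FPKM, and in wild types 7 to 9 at 48.4, 48.3 and 50.7 FPKM. Every mutant library was below every wild type, and library 1 was nearest to them. The fall was -0.73 ± 0.12 (95% interval -1.02 to -0.45, limma adjusted p = 0.0121), and it was called with each of the 6 libraries left out in turn (adjusted p 0.00270 to 0.0452). The effects differed by 1.34 ± 0.13 (95% interval 1.05 to 1.63, limma-based adjusted p = 0.000215).

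The value of Fgfr2 is for the whole gene and does not separate its epithelial (IIIb) from its mesenchymal (IIIc) form. The GENCODE model used for matching also extends far beyond the RefSeq span, to 133123350, where it overlaps 36 genes on the same strand and 33 on the other, so some reads could belong to another gene.

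Fgfr1 (chromosome 8, 25513654 to 25575718), the most abundant of the 10 genes and broadly expressed in kidney mesenchyme, had lower values in both mutants and was called in Foxd1-Cre kidneys. In Foxd1-Cre libraries it was at 143, 143, 141, 140 and 145 FPKM, against 155 to 176 FPKM (median 168) in wild types 1 to 6. The groups did not overlap, and the fall was -0.21 ± 0.03 (95% interval -0.29 to -0.14, limma adjusted p = 0.00143). After rescaling to the same total FPKM it was -0.18 and no longer called (limma adjusted p = 0.0544). In Six2-Cre libraries Fgfr1 was at 114, 99.0 and 101 FPKM against 134, 128 and 118 FPKM, again without overlap, and the test was not passed (-0.27 ± 0.07, 95% interval -0.45 to -0.09, limma adjusted p = 0.0637). It was passed without Six2-Cre library 1 (limma adjusted p = 0.0437). The effects differed by 0.06 ± 0.08 (95% interval -0.13 to 0.24, limma-based adjusted p = 0.740).

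Because Fgfr1 and Fgfr2 moved differently, the make-up of the receptor mRNA was described as percent of the summed FPKM of Fgfr1, Fgfr2, Fgfr3 and Fgfr4, with no test. Fgfr2 made up 32.2% ± 0.897 (SD, n = 5, range 31.1 to 33.6) in Foxd1-Cre kidneys and 21.2% ± 0.670 (n = 6, 20.5 to 22.5) in wild types 1 to 6. The summed FPKM was nearly the same, 219 ± 4.96 and 218 ± 10.8. In Six2-Cre kidneys Fgfr2 made up 20.9% ± 1.68 (n = 3, 19.8 to 22.9), against 27.3% ± 1.76 (n = 3, 25.9 to 29.3) in wild types 7 to 9. Here the sum was also lower, 140 ± 13.5 against 180 ± 6.84 FPKM. Fgfr1 was 2.02 ± 0.0808 times as abundant as Fgfr2 in Foxd1-Cre kidneys and 3.59 ± 0.134 times in their wild types. In the Six2-Cre comparison the ratio was 3.6 ± 0.327 against 2.58 ± 0.229. Fgfr3 and Fgfr4 each made up at most 3.33% of the sum in any library, with Fgfr3 at 2.92% ± 0.538 in Six2-Cre kidneys and 1.18% ± 0.123 in their wild types.

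**Figure D2:**
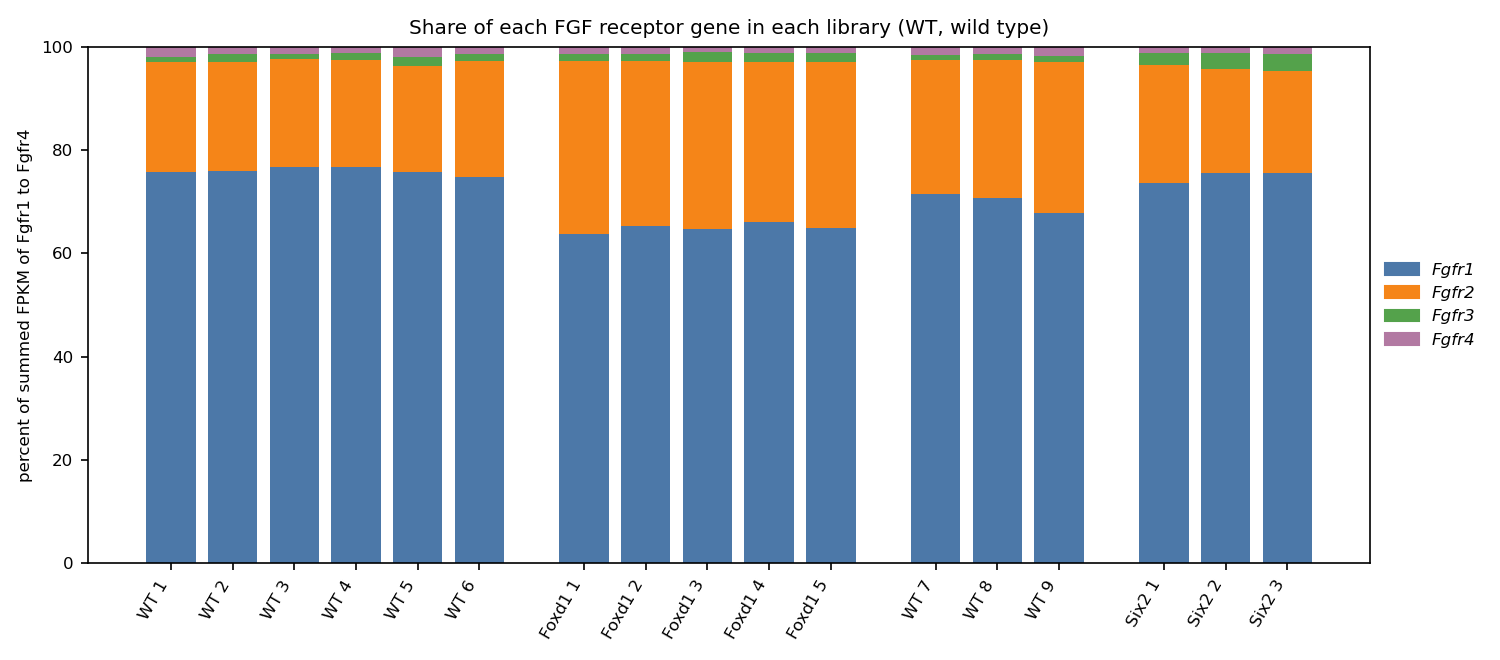
Percent of the summed FPKM of the 4 FGF receptor genes in each of the 17 libraries (one stacked bar per library, from 0 to 100%). The Fgfr2 segment spans 31.1 to 33.6% in the 5 Foxd1-Cre libraries against 20.5 to 22.5% in wild types 1 to 6, and 19.8 to 22.9% in the 3 Six2-Cre libraries against 25.9 to 29.3% in wild types 7 to 9.

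Fgfrl1 (chromosome 5, 108692382 to 108706924) was not called. It was at 26.6 ± 1.67 against 26.1 ± 1.68 FPKM in the Foxd1-Cre comparison (0.02 ± 0.05, 95% interval -0.09 to 0.14, limma adjusted p = 0.818). In the Six2-Cre comparison it was at 23.3, 21.6 and 20.7 against 20.5, 18.8 and 18.6 FPKM. All 3 mutant values lay above the wild types, by a difference of 0.17 ± 0.07 that did not pass the test (95% interval 0.01 to 0.33, limma adjusted p = 0.154). The effects differed by -0.14 ± 0.08 (95% interval -0.33 to 0.04, limma-based adjusted p = 0.337).

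The feedback inhibitors Spry2 and Dusp6 fell slightly in Foxd1-Cre kidneys. Spry2 (chromosome 14, 105891947 to 105896819), which blocks signalling between the receptors and RAF, was at 16.5, 15.3, 16.3, 17.1 and 16.2 FPKM, against 16.9 to 21.1 FPKM (median 18.7) in wild types 1 to 6. Of the 5 mutant libraries, 4 were below every wild type. The fall was -0.19 ± 0.05 (95% interval -0.31 to -0.07, limma adjusted p = 0.0374). The call was lost without any 1 of Foxd1-Cre libraries 1, 2, 3 and 5 or wild types 1, 3, 5 and 6 (limma adjusted p 0.0558 to 0.0925), and after rescaling to the same total FPKM (limma adjusted p = 0.140). In Six2-Cre kidneys Spry2 was at 28.4, 30.8 and 27.8 FPKM against 30.1, 25.7 and 22.8 FPKM, and the groups overlapped (0.15 ± 0.10, 95% interval -0.10 to 0.40, limma adjusted p = 0.402). The effects differed by -0.34 ± 0.12, which did not pass the test (95% interval -0.60 to -0.08, limma-based adjusted p = 0.102); without wild type 7 it did (limma-based adjusted p = 0.0152).

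Dusp6 (chromosome 10, 99263231 to 99267489) was at 32.8, 30.2, 36.0, 34.0 and 32.6 FPKM in Foxd1-Cre libraries and at 35.0 to 40.2 FPKM (median 36.7) in wild types 1 to 6. Here too 4 of 5 mutant libraries were below every wild type, and the fall was -0.17 ± 0.05 (95% interval -0.28 to -0.06, limma adjusted p = 0.0472). It was lost without any 1 of Foxd1-Cre libraries 1, 2, 4 and 5 or wild types 1, 3, 4 and 6 (limma adjusted p 0.0653 to 0.108), and after rescaling to the same total FPKM (limma adjusted p = 0.273). In Six2-Cre libraries Dusp6 was at 50.9, 58.6 and 50.9 FPKM against 46.2, 49.0 and 41.7 FPKM. All 3 were above the wild types, and the test was not passed (0.22 ± 0.08, 95% interval 0.03 to 0.42, limma adjusted p = 0.131). The effects differed by -0.39 ± 0.10 (95% interval -0.61 to -0.18, limma-based adjusted p = 0.0230), a call lost without Six2-Cre library 2, wild type 7 or wild type 9 (limma-based adjusted p = 0.0602, 0.0666 and 0.0536).

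**Figure D3:**
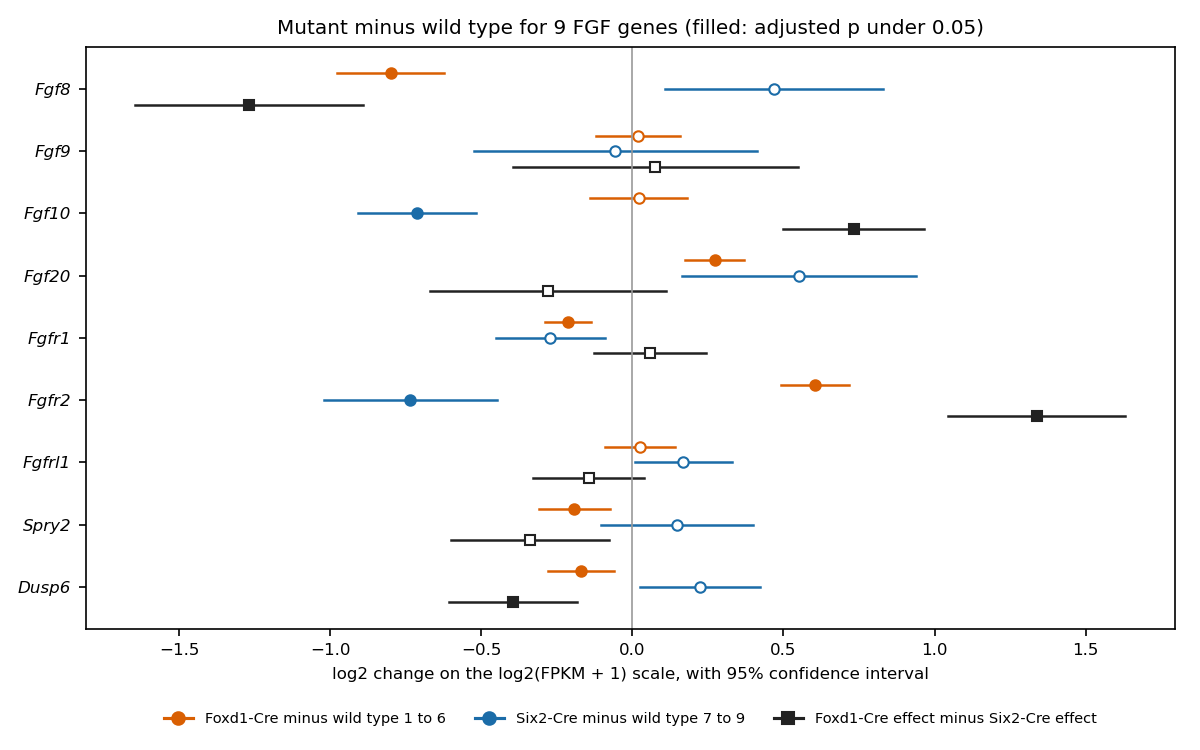
Log2 change on the log2(FPKM + 1) scale with its 95% interval for the 9 tested genes: Foxd1-Cre minus wild types 1 to 6 and Six2-Cre minus wild types 7 to 9 (circles), and the first effect minus the second (squares); filled symbols have an adjusted p under 0.05. The difference squares of Fgf8 (-1.27), Fgf10 (0.73), Fgfr2 (1.34) and Dusp6 (-0.39) are filled.

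For each called gene, the 3 genes with the most similar pattern were found among 11116 protein-coding genes whose mean reached 2 FPKM, by Pearson's r of log2(FPKM + 1) over the 17 libraries after each set's wild-type mean was subtracted. These r values are descriptions: the libraries share 2 wild-type baselines and 2 depths, and any gene that separates the same groups scores high. For Fgfr2 the genes were Kif26b (r = 0.98), Epha1 (0.98) and Atp10a (0.96). For Fgf10 they were Bri3bp (0.97), Abr (0.97) and Sobp (0.96), and for Fgf8 they were St8sia1 (0.94), Shisa3 (0.94) and Lsp1 (0.94). Fgfr1 was closest to Chst11 (0.93), Ntn1 (0.92) and Sorcs2 (0.92). Of these, Ntn1 is also among the cortical stroma markers counted above, and it fell in both mutants. Dusp6 was closest to Rapgef2 (0.92), Ptpn12 (0.92) and Nudt21 (0.90), and Fgf20 to Tnik (0.90), Csrnp1 (0.90) and Tmod3 (0.90). The lowest top value was that of Spry2, with Pou3f3 (0.86), Rbm28 (0.86) and Hs3st3b1 (0.85); the last encodes a heparan sulphate sulphotransferase.

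Other FGF-family genes were examined from a list of 17, of which 9 passed the filter on low values. Of these, Fgf3 and Fgf17 reached 1 FPKM in the 3 Six2-Cre libraries and in no other, and Fgf5 in 3 wild types and in no mutant. These 3 genes entered the fit only through the group where they were high, so their values are given below with no test. Among the other 6, Fgf13 rose in Foxd1-Cre kidneys and none was called in Six2-Cre kidneys by limma, with 1 at an unadjusted p under 0.05. Fgf13, an intracellular family member that does not act through the receptors, was at 16.5, 14.7, 17.5, 18.9 and 16.3 FPKM in Foxd1-Cre libraries against 1.47 to 2.14 FPKM in wild types 1 to 6. It was the largest change among the pathway genes tested in that comparison, 2.66 ± 0.08 (limma adjusted p = 1.32e-09), or a ratio of means of 9.24. In Six2-Cre libraries Fgf13 was at 3.90, 3.77 and 3.72 FPKM against 3.22, 1.87 and 2.44 FPKM, and was not called (0.47 ± 0.15, limma adjusted p = 0.0980); without wild type 7 it was (limma adjusted p = 0.0470). The effects on Fgf13 differed by 2.19 ± 0.17.

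Fgf17, a ligand of the Fgf8 subfamily, was at 2.79, 3.68 and 2.78 FPKM in Six2-Cre libraries, while wild type 7 was listed at 0 and wild types 8 and 9 at 0.207 and 0.221 FPKM. Fgf3, a ligand that signals through the epithelial form of Fgfr2, was at 1.84, 1.96 and 2.75 FPKM, against 0.299 FPKM in wild type 7 and 0 in wild types 8 and 9. The Six2-Cre libraries were above every wild type for both, at an estimated 25.3 to 37.1 reads of Fgf17 and 22.8 to 37.6 reads of Fgf3. In Foxd1-Cre libraries Fgf17 was at 0.10 to 0.282 FPKM against 0.0884 to 0.279 FPKM in wild types 1 to 6. Fgf3 was at 0.0996 to 0.256 FPKM there against 0.215 to 0.452 FPKM, with 4 of 5 mutant libraries below every wild type.

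Fgf5, named here after its values were seen because it was low in both mutants, was at 0.142 to 0.272 FPKM in Foxd1-Cre libraries against 0.657 to 1.02 FPKM. In Six2-Cre libraries it was at 0.152 to 0.213 FPKM against 0.747 to 1.64 FPKM. No library overlapped between groups in either comparison, at an estimated 2.3 to 3.2 reads per Six2-Cre library.

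**Figure D4:**
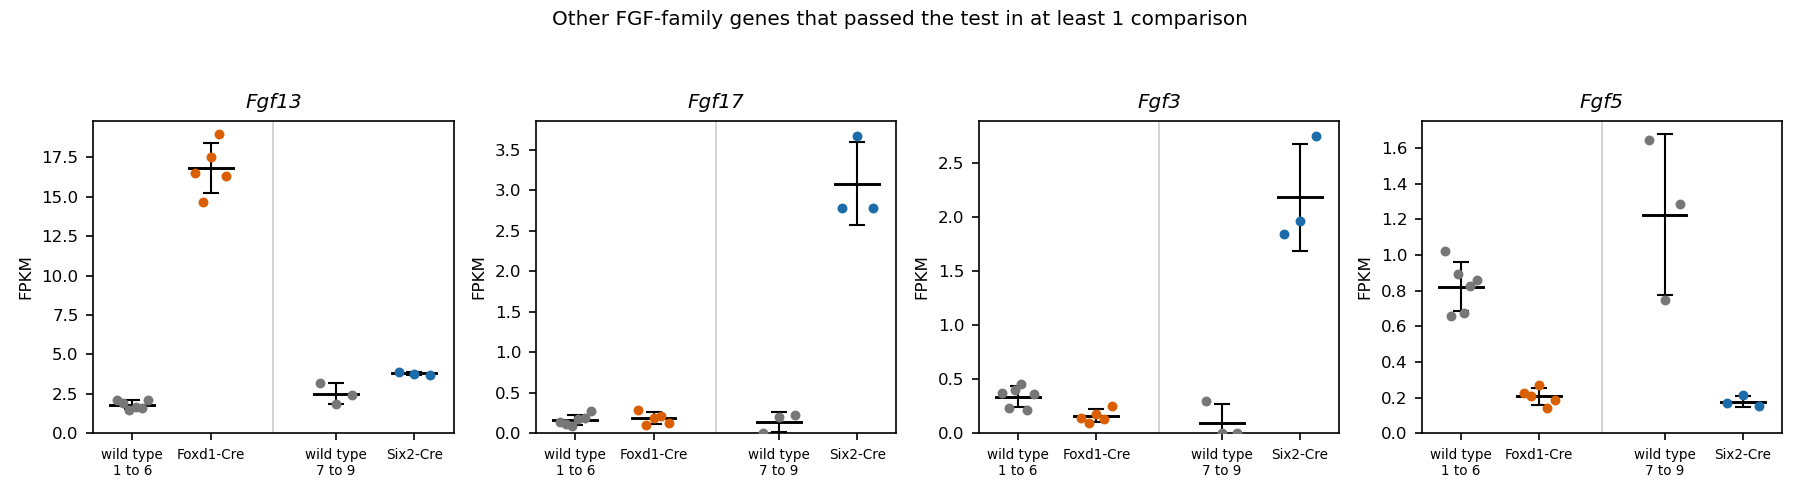
FPKM of Fgf13, Fgf17, Fgf3 and Fgf5 in each library (points) with group mean and SD (bars), in the 4 groups; axes start at 0. Fgf13 is high in the 5 Foxd1-Cre libraries (14.7 to 18.9 FPKM). Fgf17 (2.78 to 3.68 FPKM) and Fgf3 (1.84 to 2.75 FPKM) are high in the 3 Six2-Cre libraries, and Fgf5 is low in both mutants. The title says that these genes passed the test, which holds for Fgf13 only. Fgf17, Fgf3 and Fgf5 passed the filter only through the group where they were high, so their calls are not test results.

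Of 8 tested genes for other receptors and co-receptors, 3 rose and none fell in Foxd1-Cre kidneys (median 0.19), and 4 rose and 2 fell in Six2-Cre kidneys (median 0.27). Over all genes tested, 8.45% rose and 4.82% fell in Foxd1-Cre and 7.93% rose and 5.84% fell in Six2-Cre kidneys, and the medians were -0.01 in both. Flrt2 and Flrt3, membrane proteins that bind FGF receptors, rose in both. Flrt2 went from 13.4 ± 1.81 to 32.7 ± 4.12 FPKM in the Foxd1-Cre comparison (1.22 ± 0.10, limma adjusted p = 7.59e-06) and from 26.2 ± 2.15 to 39.3 ± 2.43 FPKM in the Six2-Cre comparison (0.57 ± 0.08, limma adjusted p = 0.00635). Flrt3 went from 7.77 ± 1.31 to 12.7 ± 0.647 FPKM (0.66 ± 0.09) and from 12 ± 1.77 to 26.1 ± 2.2 FPKM (1.07 ± 0.11). Lrig3, which encodes a membrane protein reported to act on FGF receptors, moved like Fgfr2, rising in Foxd1-Cre (0.27 ± 0.04) and falling in Six2-Cre kidneys (-0.39 ± 0.06), and these effects differed (0.66 ± 0.07). Fgfr3 rose in Six2-Cre kidneys, from 2.12 ± 0.20 to 4.04 ± 0.421 FPKM (0.69 ± 0.11, limma adjusted p = 0.0108).

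The other feedback inhibitors gave no call in Foxd1-Cre kidneys by limma (0 of 14 tested, 3 at an unadjusted p under 0.05, median -0.06), where 13.3% of all genes were called. In Six2-Cre kidneys 3 of 14 rose and none fell (median 0.13, against 7.93% of all genes rising), namely Spry1, Spry4 and, less firmly, Dusp1. Spry4, a Sprouty like Spry2, was at 18.6, 17.9 and 16.4 FPKM against 11.5, 10.8 and 9.94 FPKM in wild types 7 to 9 (0.67 ± 0.08, limma adjusted p = 0.00424). Spry1, which restrains Ret and FGF signalling in the ureteric bud, was at 57.4, 54 and 54.9 against 43.2, 41.1 and 37.1 FPKM (0.45 ± 0.06, limma adjusted p = 0.00838). Dusp1, another MAP kinase phosphatase, was at 6.93 ± 0.446 against 5.13 ± 0.253 FPKM (0.37 ± 0.08, limma adjusted p = 0.0305), a call lost without any 1 of the 6 libraries (limma adjusted p 0.0627 to 0.0981). Of the 5 Sprouty and phosphatase genes named here, Spry2 and Dusp6 fell in Foxd1-Cre kidneys, and Spry1, Spry4 and Dusp1 rose in Six2-Cre kidneys. The last 3 were named because they were called. The calls of Spry2, Dusp6 and Dusp1 were easily lost, as given above. The effects in the mutants differed for 3 of the 14, against 11% of all genes: Spry1 (-0.56 ± 0.07), Spry4 (-0.52 ± 0.11) and Il17rd. Those on Dusp6 differed as given above, and those on Dusp1 did not by this test (-0.27 ± 0.11, limma-based adjusted p = 0.124).

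Of 11 tested genes known as targets of ERK or ETS factors, 3 rose and 1 fell in Foxd1-Cre kidneys (median -0.11; 8.45% of all genes rose and 4.82% fell), and 2 rose and 3 fell in Six2-Cre kidneys (median 0.00; 7.93% and 5.84%). Etv4, an ETS factor of the bud tips, fell from 61.3 ± 3.82 to 46.8 ± 3.33 FPKM in Foxd1-Cre kidneys (-0.38 ± 0.05, limma adjusted p = 0.000462). It also fell in Six2-Cre kidneys (-0.31 ± 0.07, limma adjusted p = 0.0382), a call lost without any 1 of 5 of the 6 libraries (limma adjusted p 0.0641 to 0.112). The related factor Etv1 rose in both, by 0.46 ± 0.07 and 0.75 ± 0.11. Egr1, an immediate early gene, rose in Six2-Cre kidneys from 9.20 ± 0.924 to 17.3 ± 1.97 FPKM (0.84 ± 0.11, limma adjusted p = 0.00577), and its effects in the mutants differed (-1.06 ± 0.16). Myc rose slightly in Foxd1-Cre kidneys (0.19 ± 0.03) and fell in Six2-Cre kidneys (-0.80 ± 0.06), where the cyclin gene Ccnd1 fell as well (-0.69 ± 0.05). Ier3, another immediate early gene, rose in Foxd1-Cre kidneys (0.54 ± 0.07). The members of this list thus moved in both directions in each mutant.

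The 19 genes for adaptors and the RAS-MAPK cascade, all tested, gave 0 calls by limma in either mutant, with 3 at an unadjusted p under 0.05 in Foxd1-Cre and 5 in Six2-Cre kidneys, where 13.3% and 13.8% of all genes were called. Their medians were 0.00 and -0.04. Among 22 tested genes that make or carry heparan sulphate chains, 6 rose and 2 fell in Foxd1-Cre kidneys (median 0.08), and 4 rose and 4 fell in Six2-Cre kidneys (median 0.10), against the same 13.3% and 13.8% of all genes called in either direction. Sdc2, a syndecan, rose from 15.2 ± 1.10 to 69.9 ± 8.86 FPKM in Foxd1-Cre kidneys (2.12 ± 0.08, limma adjusted p = 5.05e-09) and was at 15.7 ± 2.40 against 16.6 ± 0.751 FPKM in Six2-Cre kidneys, and the effects differed (2.21 ± 0.14). The glypican gene Gpc4 rose in both mutants (0.93 ± 0.10 and 1.05 ± 0.11). The chain polymerase gene Ext1 rose by 0.66 ± 0.04 in Foxd1-Cre kidneys, where the sulphotransferase gene Hs6st1 fell (-0.26 ± 0.04). Gpc1 (-0.64 ± 0.08), Sdc4 (-0.70 ± 0.08) and the sulphatase gene Sulf2 (-0.56 ± 0.05) fell in Six2-Cre kidneys.

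**Figure D5:**
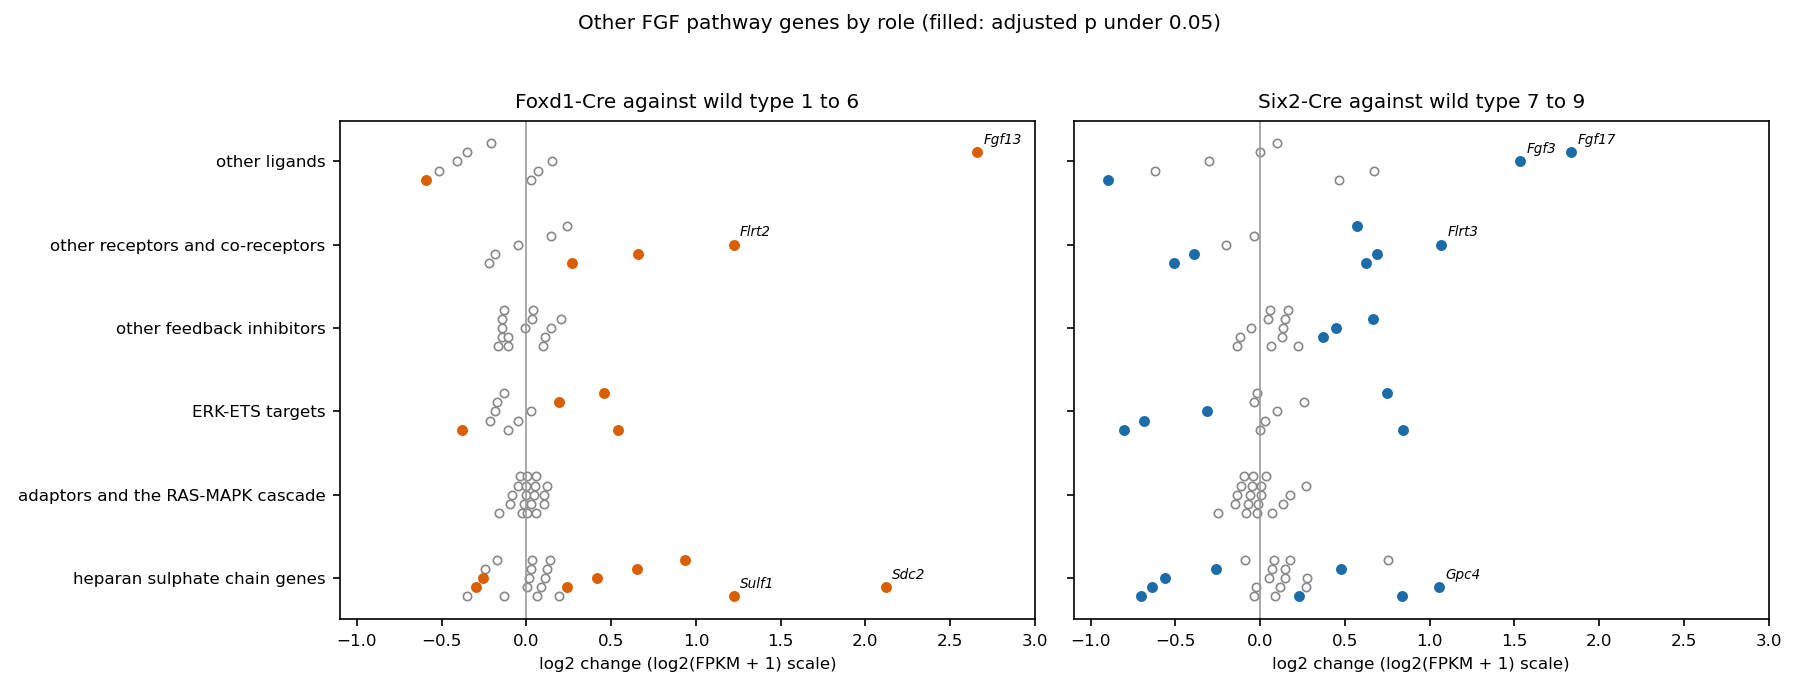
Log2 change on the log2(FPKM + 1) scale for each tested gene of the other FGF pathway lists, in Foxd1-Cre kidneys (left) and Six2-Cre kidneys (right); filled points have an adjusted p under 0.05 and changes beyond 1 in size are named. Fgf13 (2.66) and Sdc2 (2.12) lie farthest right in Foxd1-Cre, and no gene of the RAS-MAPK list is filled in either. Fgf3, Fgf17 and Fgf5 passed the filter only through the group where they were high. The filled points of Fgf3 and Fgf17 in Six2-Cre and of Fgf5 on both sides are therefore not test results.

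Counting by strand is not stated, so the values of genes whose whole annotated span overlaps another gene on either strand are uncertain. This holds among the 10 genes for Fgf7, Fgf9, Fgf10, Fgf20, Fgfr1 and Fgfr2, and among the others named for Fgf13, Fgfr3, Flrt2, Flrt3, Spry1, Spry4, Dusp1, Ccnd1, Hs6st1, Gpc1 and Sulf2. Fgf8, Fgfrl1, Spry2 and Dusp6 have no overlapping gene in the annotation. Shared exons were not examined.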

How the data were processed

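The submitters' processing notes name bcl2fastq 2.17.1.14, Salmon and GRCm38; how transcripts were summed to genes, with which annotation and scaling, is not given in the sources used here. The authors deposited 1 table of FPKM values, whose columns were mapped to the 17 libraries by name. Gene IDs were matched to GENCODE vM21 (24189 of 24432 had a symbol). The 10 genes, the lists and the tests were chosen with earlier results of these data known.

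After the transformation log2(FPKM + 1), the 14014 genes that reached 1 FPKM in 3 or more libraries entered linear models in limma 3.58.1 (R 4.3.3, variance trend on), fitted for each mutant with its own wild types; p-values are two-sided and adjusted by Benjamini-Hochberg over all genes tested. The difference of the effects used summed squared errors and Satterthwaite degrees of freedom. The scripts were tested on simulated data. Total FPKM per library was 857705 to 963729 in the first set and 799273 to 834838 in the second. The steps between low values of genes with 1 transcript of 1500 to 4000 bases gave the value of 1 read; read numbers are estimates from the longest transcript and cover counting error only. From each other list, up to 4 called genes per comparison were named, those with the smallest p whose higher group averaged 2 FPKM or more. Alternatives were a pseudocount of 0.1, no filter, no trend, rescaling to the same total or upper quartile, all wild types pooled, a replicate block and leaving out each library.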

Additional observations from a re-analysis of the deposited data

Results flagged for a closer look

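The changes in the mutants differed from each other for 4 of the 9 tested genes, each by the test of the difference itself with p-values adjusted over all genes. Foxd1-Cre effect minus Six2-Cre effect was -1.27 on the log2 scale for Fgf8, 0.73 for Fgf10, 1.34 for Fgfr2 and -0.39 for Dusp6. Fgfr2 was called in both mutants in opposite directions, Fgf8 and Dusp6 were called in Foxd1-Cre kidneys only, and Fgf10 in Six2-Cre kidneys only. The mutants were compared through separate wild types and at different depths. No library stood apart from its group by Dixon's test for any of the 10 genes in the groups of 5 and 6 libraries.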

How the results depend on the processing

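Depth limits the Six2-Cre comparison, with 3 libraries a group and about 5 to 92 estimated reads per library for Fgf7, Fgf8, Fgf9 and Fgf20. Pseudocount 0.1 and rescaling to the same upper quartile changed no call or direction of the 9 genes. Rescaling to the same total FPKM left 3 of the 6 calls in Foxd1-Cre (Fgfr1, Spry2 and Dusp6 lost); Dusp6 was also lost with no filter or no trend. Pooling all 9 wild types mixes the depths and moved the median difference of the effects over all genes to 0.12. With it, Fgfr1 (-0.09) and Spry2 (-0.34) lost their calls in Foxd1-Cre, and calls among the 9 genes became 7 in Six2-Cre and 7 for the difference. Calls over all genes became 1234 in Foxd1-Cre (1856 with its own wild types), 6444 in Six2-Cre (1905) and 8505 for the difference (1519). Values uncalled with their own wild types reversed on pooling: Fgf10 (-0.081) and Fgf9 (-0.18) in Foxd1-Cre, Fgf9 (0.35) and Fgfrl1 (-0.11) in Six2-Cre, and Fgf9 (-0.54, then called, limma-based adjusted p = 0.0303) and Fgfrl1 (0.27) for the difference; the cause was not tested. Leaving out 1 library gave 4 to 6, 2 to 3 and 3 to 4 called genes of the 9 in Foxd1-Cre, Six2-Cre and the difference, and 907 to 1467 calls over all genes in Six2-Cre, where fewer libraries were used. It reversed uncalled values near 0 only: Fgf10 (-0.026 to 0.062), Fgf9 (-0.012 to 0.049) and Fgfrl1 (-0.0089 to 0.051) in Foxd1-Cre, Fgf9 in Six2-Cre (-0.17 to 0.11) and for the difference (-0.088 to 0.19). With the replicate number as a block, 5 of the 6 calls in Foxd1-Cre remained (Spry2 lost, -0.16, limma adjusted p = 0.0702) and 1426 genes were called. Deviations of same-numbered libraries correlated at 0.0117 to 0.117, and only replicate 5 correlated best with its own number. Correlations this weak cannot settle whether same-numbered libraries were handled together, and the labels give only the number. No paired analysis was possible for Six2-Cre because it shares no replicate number with wild types 7 to 9.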
